A study of Mus musculus with 4 samples.

Results

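The genes described here are 10: Cdkn1a, 8 further genes induced by the transcription factor p53 (Mdm2, Ccng1, Gdf15, Phlda3, Zmat3, Eda2r, Trp53inp1 and Btg2), and Trp53, the gene of p53 itself. They were chosen by symbol from the 31054 features that all 4 matrices list, and each symbol had 1 row. The cells came from lungs of male C57BL/6 mice, 19 months old when treatment began and treated for 1 month with BPTES, an inhibitor of the glutaminase GLS1, or with its vehicle DMSO, with 2 libraries in each group. Animals of both groups were aged, and no young lungs were included. Each library held sorted cells of 1 tissue, 20000 CD45-negative and 9000 CD45-positive (immune) cells mixed after digestion for 1 hour at 37 °C, so the sort set the ratio of CD45-negative to CD45-positive cells. Within these fractions the numbers still differed between libraries, as in AT2-like cells with 404 and 412 cells in the BPTES and 125 and 239 in the DMSO libraries. The labels do not say whether the libraries of a group came from separate animals, so p-values measure the spread between these libraries, which may be technical.

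p53 is held at low levels in unstressed cells and is stabilised by DNA damage and other stresses, mainly at the protein level, so its activity is usually read from its target genes. Cdkn1a encodes p21, which binds cyclin-dependent kinases and stops the cell cycle, and it is widely used as a marker of senescent cells. Cdkn1a also responds to signals that do not pass through p53, which is why it is described here together with other targets.

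The 10 rows were located in the GENCODE annotation of mm10, the build in the submitters' processing notes. Cdkn1a (ENSMUSG00000023067) lies on chromosome 17 at 29090976-29100727 on the plus strand. It is the only one of the 10 that overlaps another annotated gene, AC167363.2 on the opposite strand, and whether counting used strand is not given in the sources used here. On the plus strand also lie Phlda3 (chromosome 1 at 135766119-135769136), Trp53inp1 (chromosome 4 at 11156431-11174379) and Trp53 (chromosome 11 at 69580359-69591873). On the minus strand lie Mdm2 (chromosome 10 at 117688875-117710758), Ccng1 (chromosome 11 at 40748552-40755311), Gdf15 (chromosome 8 at 70629393-70632456) and Zmat3 (chromosome 3 at 32334792-32366014). Eda2r (chromosome X at 97333840-97377216) and Btg2 (chromosome 1 at 134075170-134079120) are on the minus strand too. RefSeq (GRCm38.p6, the assembly also called mm10) lists 2 Cdkn1a starts 2790 bases apart. The 250 bases before the upstream one, chr17:29090729-29090978 on the plus strand, are shown because they hold the paired form of the p53 consensus element. Its 2 10-base elements, 12 bases apart and 73 to 42 bases before the start, are in capitals. The search allowed no mismatch. The stretch tgacatgttc directly after them, which departs from the consensus at its leading base alone, is therefore in lower case:
Cdkn1a: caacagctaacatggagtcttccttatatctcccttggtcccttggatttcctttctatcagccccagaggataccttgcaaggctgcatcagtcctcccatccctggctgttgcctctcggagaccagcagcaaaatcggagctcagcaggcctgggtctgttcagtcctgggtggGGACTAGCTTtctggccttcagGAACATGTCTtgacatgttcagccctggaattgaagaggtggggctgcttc

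Promoter windows of 250 bases before to 50 after a RefSeq start were found for 8 of the 10 genes. A single p53 consensus element, searched by its degenerate consensus, which reads the same on both strands, stood in a window of 4 of these 8 genes. Of all 32851 windows in the table, 8.36% hold one, and 24 (0.0731%) hold the paired form with at most 13 bases between the elements. The stretches around the single elements of Mdm2, Ccng1 and Trp53 are given for comparison with that of Cdkn1a, with the element in capitals:
Mdm2: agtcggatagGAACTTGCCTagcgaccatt
Ccng1: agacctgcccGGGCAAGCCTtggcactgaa
Trp53: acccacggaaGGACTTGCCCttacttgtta
They lie at chr10:117710925-117710954 (minus strand), chr11:40755452-40755481 (minus strand) and chr11:69580274-69580303 (plus strand). No match was found in the windows of Gdf15, Phlda3, Eda2r and Btg2. A match is a run of letters, not a measured binding site, and the lack of one concerns these windows alone.

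The matrices held 260346570 to 342107092 UMIs (single RNA molecules counted once) per library. After filtering, 63895 cells were kept, 14407 to 18860 per library, with a median of 13915.5 to 15743 UMIs per cell. They formed 37 clusters. Of these, 9 clusters with 15051 cells (23.56%) could not be named from their markers. Of 24 named classes, 18 had at least 50 cells in every library and are described. In each of the 18, all 7 or 8 measured defining markers reached at least 10 counts per 1000000 (CPM). Of these markers, 6 to 8 per class were higher there than in any other of the 18 classes. Of 73480 barcode sequences, 575 (0.783%) occurred in more than 1 library. The surfactant gene Sftpc had 200 CPM in B-like cells, 0.120% of its level in alveolar type 2 (AT2)-like cells. AT2-like cells were only 1180 of the kept cells, so this share does not give the total RNA carried over between droplets. That total was not estimated.

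Cdkn1a was highest in aerocyte-like cells, the large capillary endothelial cells of the gas-exchange surface, and lowest in B-like cells. Levels are CPM of the summed UMIs of a class, as mean ± SD over the 4 libraries. Aerocyte-like cells had 1021 and 1074.5 CPM in the BPTES libraries and 833 and 913 CPM in the DMSO libraries, a mean of 960 ± 108. All 4 values lay above every library of every other described class. Classical monocyte-like cells came next with 632 ± 37 CPM (585 to 671), also without overlap with the class below. Neutrophil-like cells had 513 ± 43 CPM, peribronchial fibroblast-like cells 473 ± 84, interstitial macrophage-like cells 426 ± 46, general capillary-like cells 382 ± 10 and venous endothelial-like cells 365 ± 34. Fibroblasts differed widely among themselves: adventitial fibroblast-like cells had 202 ± 23 CPM and alveolar fibroblast-like cells 94.5 ± 14. At the low end were AT2-like cells with 55.8 ± 13, T-like cells with 35.9 ± 4.3 and B-like cells with 13.1 ± 1.9 CPM. These 3 classes did not overlap one another. Of the 17 pairs of neighbours in this order, 13 overlapped, so the ranking is firm only at its ends. The level in aerocyte-like cells was 3.63 times the median of the 18 classes (SD over single libraries 0.617).

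Cells were also compared at 1 depth, by drawing 3000 UMIs from each cell and leaving out shallower cells. Then 81.8% of aerocyte-like cells had a Cdkn1a UMI, against 79.6% of classical monocyte-like, 52.2% of general capillary-like, 17.2% of alveolar fibroblast-like and 3.16% of B-like cells. Before thinning the shares were 95.5% in aerocyte-like and 8.83% in B-like cells. Aerocyte-like cells and classical monocyte-like cells were thus near each other in the share of cells with Cdkn1a, while 41.3% of aerocyte-like and 30.4% of classical monocyte-like cells had 3 or more UMIs. In alveolar fibroblast-like cells 82.7% of cells had none, 2.56% had 3 or more, and the 5% of cells with the most held 53.1% of all Cdkn1a UMIs. That last share was also high in other classes where few cells had a UMI. It was 72.9% in T-like, 60% in pericyte-like, 56.2% in AT2-like and 50.7% in NK-like cells.

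**Figure D1:**
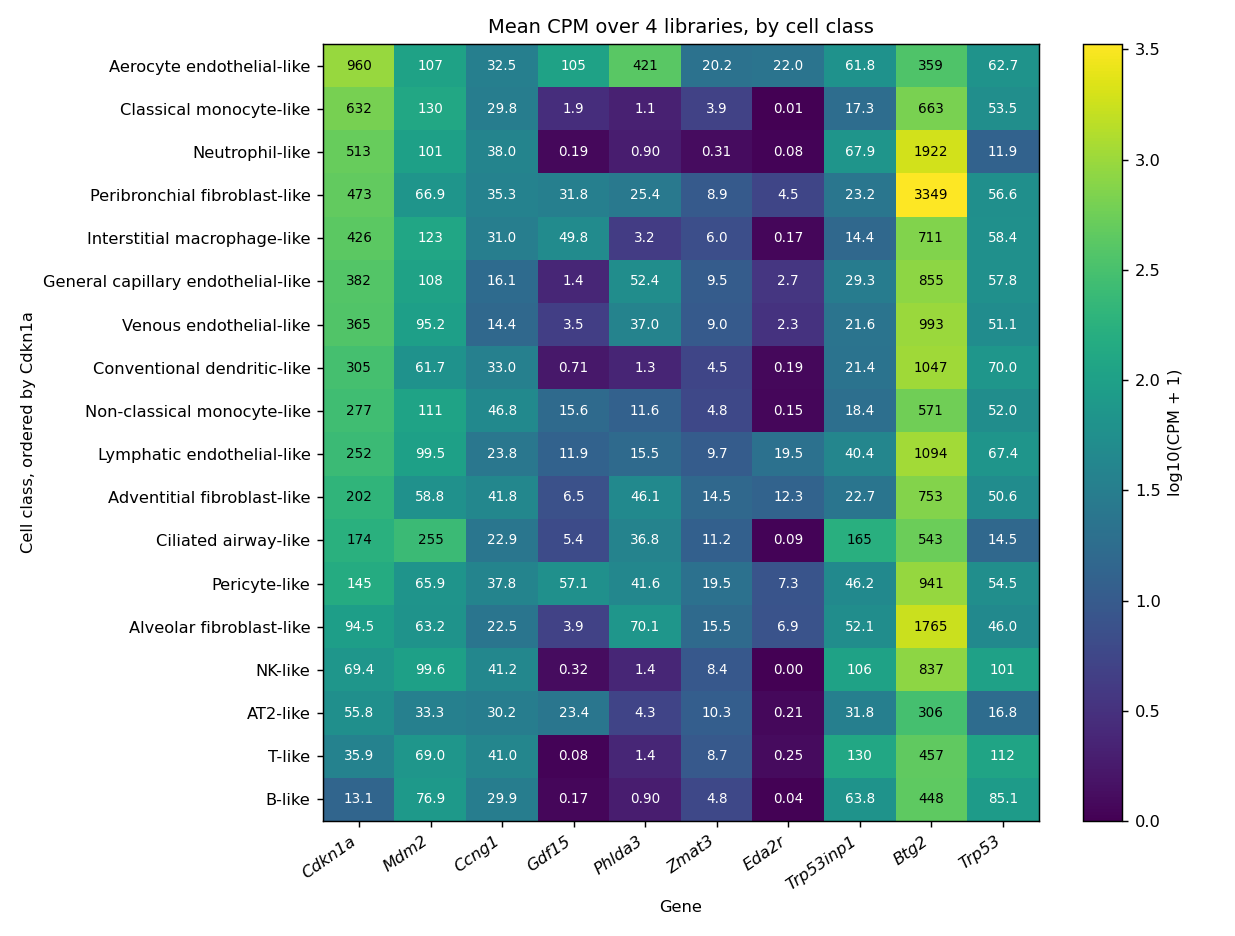
Mean CPM over 4 libraries (colour: log10(CPM + 1); numbers: CPM) of the 10 genes (columns) in 18 cell classes (rows, ordered by Cdkn1a). Aerocyte-like cells stand at the top for Cdkn1a, Gdf15, Phlda3, Zmat3 and Eda2r, while Mdm2 and Trp53inp1 are highest in ciliated airway-like cells.

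Among the 18 classes, 4 other targets also had their highest mean in aerocyte-like cells. Phlda3, a pleckstrin homology domain protein that restrains AKT signalling, was the clearest. Its aerocyte levels were 410, 439, 412 and 424 CPM in the libraries BPTES 1, BPTES 2, DMSO 1 and DMSO 2. The next class, alveolar fibroblast-like cells, had 70.1 ± 4.5 CPM, and no other described class reached the lowest aerocyte value. Phlda3 was near 1 CPM in lymphoid cells and granulocytes, with 0.899 ± 0.20 in B-like and 0.905 ± 0.59 in neutrophil-like cells.

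Gdf15, a secreted stress cytokine, had 103, 153, 47.4 and 117 CPM in aerocyte-like cells in the same order of libraries. Pericyte-like cells had 57.1 ± 19 CPM, interstitial macrophage-like cells 49.8 ± 5.9, peribronchial fibroblast-like cells 31.8 ± 8.0 and AT2-like cells 23.4 ± 10. Pericyte-like cells were not above aerocyte-like cells in any library, but in DMSO 1 both classes were at 47.4 CPM, and the ranges of the classes over libraries overlapped. In classical monocyte-like cells, next to aerocyte-like cells for Cdkn1a, Gdf15 was at 1.87 ± 0.057 CPM, and in neutrophil-like cells at 0.191 ± 0.22. Alveolar macrophage-like cells, which had too few cells for full description, had 108 ± 47 CPM of Gdf15 and 520 ± 61 CPM of Cdkn1a.

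Eda2r encodes a receptor of the tumour necrosis factor family for ectodysplasin A2. Its aerocyte-like levels were 28.4, 26.7, 13.7 and 19.2 CPM, overlapping those of lymphatic endothelial-like cells (19.5 ± 3.2). Adventitial fibroblast-like cells had 12.3 ± 3.1 CPM, pericyte-like cells 7.30 ± 4.7 and alveolar fibroblast-like cells 6.88 ± 0.78. Immune classes had at most 0.252 ± 0.41 CPM, a mean reached in T-like cells. In the small mesothelial-like class it had 27.7, 202, 17.5 and 56.0 CPM, with 4, 15, 221 and 66 cells, and the highest value rested on the 15 cells of BPTES 2. In 1 unnamed cluster of 2853 cells it was 22.0 ± 5.0 CPM. Zmat3, an RNA-binding zinc finger protein, had 20.2 ± 5.1 CPM in aerocyte-like and 19.5 ± 2.7 CPM in pericyte-like cells, which overlapped, against 0.308 ± 0.21 in neutrophil-like cells.

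**Figure D2:**
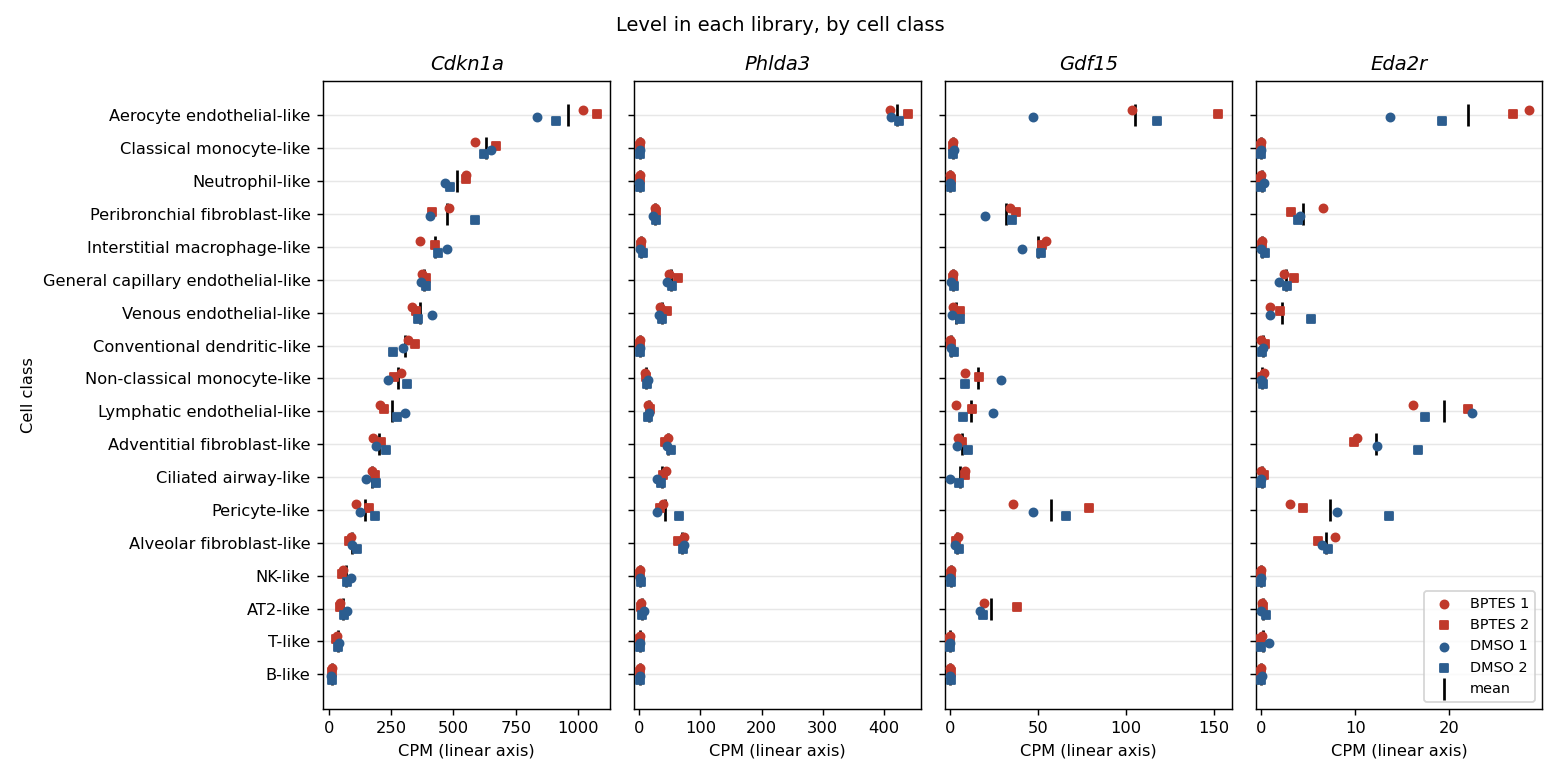
CPM (x axis, linear) of Cdkn1a, Phlda3, Gdf15 and Eda2r in each library (points; BPTES red, DMSO blue) and their mean (bar) in 18 classes ordered by Cdkn1a. Classical monocyte-like and neutrophil-like cells follow aerocyte-like cells for Cdkn1a and have at most 1.87 CPM of Gdf15 and 1.14 CPM of Phlda3 on average.

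The remaining genes followed other orders. Mdm2, the ubiquitin ligase that degrades p53, was highest in ciliated airway-like cells (243, 220, 312 and 247 CPM) and lowest in AT2-like cells (33.3 ± 3.9). The range over its 18 means was 7.66-fold, against 73.4-fold for Cdkn1a. Trp53inp1, a stress-induced nuclear protein, was likewise highest in ciliated airway-like cells (165 ± 8.8 CPM), followed by T-like (130 ± 12) and NK-like cells (106 ± 8.3), which are low in Cdkn1a. Plasma-like cells, too few for full description, had 859 ± 156 CPM of Trp53inp1. Btg2, an antiproliferative gene that is also an immediate early gene, was highest in peribronchial fibroblast-like cells (3349 ± 366 CPM). Neutrophil-like cells had 1922 ± 246 and alveolar fibroblast-like cells 1765 ± 396 CPM of Btg2. Aerocyte-like cells had 359 ± 76.1 CPM, and of the 18 classes AT2-like cells alone had a lower mean (306 ± 34.6). Ccng1, cyclin G1, varied least, from 14.4 ± 0.77 CPM in venous endothelial-like to 46.8 ± 3.9 in non-classical monocyte-like cells. Trp53 RNA was highest in T-like cells (112 ± 5.4 CPM) and lowest in neutrophil-like cells (11.9 ± 2.3), with 62.7 ± 2.2 in aerocyte-like cells.

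Across the 18 classes the other targets followed Cdkn1a only loosely. Spearman's rho with Cdkn1a was 0.47 for Mdm2, 0.31 for Gdf15, 0.30 for Btg2, 0.13 for Phlda3 and 0.12 for Eda2r. It was -0.10 for Ccng1, -0.18 for Trp53, -0.21 for Zmat3 and -0.48 for Trp53inp1. These are descriptions over 18 points that share libraries and sequencing depth. Over 10249 genes with a mean of at least 10 CPM, the median rho with Cdkn1a was -0.05 and the 5th to 95th percentiles ran from -0.49 to 0.46. Mdm2 lay above 95.5% of these genes and Trp53inp1 above 5.72%. Single libraries gave 0.46 to 0.51 for Mdm2 and -0.60 to -0.38 for Trp53inp1.

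The same values were taken separately over the 10 CD45-negative and the 8 CD45-positive classes, without a test of the difference. Trp53 RNA had a rho of 0.72 with Cdkn1a over CD45-negative and -0.74 over CD45-positive classes. Zmat3 had -0.30 and -0.71, Mdm2 0.58 and 0.64, and Btg2 0.16 and 0.62. Over all genes the median was 0.13 in CD45-negative classes, with 5th to 95th percentiles of -0.56 to 0.68, and -0.26 in CD45-positive classes, with -0.90 to 0.76. The 0.72 of Trp53 lay above that range and the other values named lay inside it. By Pearson's r of log values, averaged over libraries, the genes most like Cdkn1a were Tnfrsf1a (0.87), Tgm2 (0.84), Ifitm2 (0.84), Cnih4 (0.83) and Mettl9 (0.83). None of these is on the lists of p53 targets used here. Of the 7 other members with a mean of at least 10 CPM, Mdm2 came first in this ranking at place 949 of 10249, with r = 0.38.

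Within classes, cells with a Cdkn1a UMI differed from cells without one, and in alveolar fibroblast-like, general capillary-like and aerocyte-like cells members beyond Btg2 were called higher in them. Cells thinned to 3000 UMIs were split into positive (at least 1 Cdkn1a UMI) and negative (0) cells. The counts of each kind were summed per library, and the sums were compared with edgeR's quasi-likelihood test with the library as a block and Benjamini-Hochberg adjustment over all genes of the class. Cdkn1a itself was left out. A gene was called at an adjusted p under 0.05. In the 8 largest of the classes with at least 50 positive and 50 negative cells in every library, 49 pairs of member and class were tested. Of these, 15 were called higher in positive cells and 0 lower. Among all pairs of gene and class, 3.44% were called higher and 1.78% lower. Without adjustment, 18 of the 49 pairs had p under 0.05, against 14.8% of all pairs of gene and class. DESeq2 called 9, and among all pairs with an adjusted p it called 2.41% in either direction. Of the 72 pairs in these classes, 23 were too low to be tested. In 42 of the 49 the negative cells of all 4 libraries also reached the filter's count, and 12 of these 42 were called higher. The 3 further calls were of Gdf15 and Eda2r in alveolar fibroblast-like and Eda2r in general capillary-like cells. Those genes passed the filter only through the positive cells, where they were high, so their values are given as a description without a test. Genes of the other lists named below were not checked for this, so their counts of calls may hold such genes.

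Alveolar fibroblast-like cells, the stromal cells of the alveolar wall, had the most calls: 7 of 9 members tested were higher in positive cells, with 3.62% of all genes called higher there. The 7 include Gdf15 and Eda2r, which passed the filter only through the positive cells and are given as a description. Eda2r stood at 19.3, 26.2, 24.7 and 14.2 CPM in the positive cells of BPTES 1, BPTES 2, DMSO 1 and DMSO 2, and at 4.47, 2.88, 2.85 and 4.49 CPM in the negative cells. The positive cells were higher in all 4 libraries without overlap, with a fitted log2 fold change of 2.48 (SE 0.25) that rests on 19 to 30 UMIs per library in positive and 15 to 28 in negative cells. Gdf15 was at 8.95 ± 2.6 against 2.52 ± 0.42 CPM, with 7 to 13 UMIs per library in positive and 10 to 16 in negative cells (log2 fold change 1.78, SE 0.34).

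The other calls in these fibroblasts were smaller. Phlda3 was higher by 0.71 on the log2 scale (99.4 ± 18 against 62.1 ± 4.2 CPM), Ccng1 by 0.69 (33.1 ± 6.0 against 20.5 ± 1.1), Zmat3 by 0.62, Mdm2 by 0.51 (85.9 ± 8.0 against 59.8 ± 5.6) and Btg2 by 0.40. Each of these 5 was higher in positive cells in 4 of 4 libraries. The Zmat3 call (adjusted p = 0.0238 by edgeR) was lost without BPTES replicate 2 or DMSO replicate 2, with an adjusted p of up to 0.314. Trp53inp1 (log2 fold change 0.07, SE 0.10) and Trp53 (0.15, SE 0.11) were not called. Of 27 other p53 targets on a separate list, 7 were higher and 0 lower, with a median log2 fold change of 0.25 over the list and 0.00 over all genes. How many of them reached the filter's count in negative cells was not checked, here and in the classes below. They included the death receptor gene Fas (0.52), the ribosomal protein-like gene Rps27l (0.56) and the nuclease gene Aen (0.93).

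In general capillary-like cells, the main capillary endothelial class, 4 of 8 members tested were higher in positive cells, where 10.1% of all genes were called higher. The 4 include Eda2r, which passed the filter only through the positive cells and is given as a description. Eda2r was very low in this class, with 3.03, 6.06, 2.64 and 5.33 CPM in positive cells and 1.16, 0.301, 0 and 1.43 CPM in negative cells. Positive cells were higher in every library without overlap, on 14, 23, 10 and 32 UMIs in positive and 5, 1, 0 and 8 UMIs in negative cells. Btg2 was higher by 0.79 (1072 ± 232 against 621 ± 124 CPM), Phlda3 by 0.36 and Mdm2 by 0.35 (120 ± 6.1 against 95.4 ± 9.6). Phlda3 was no longer called without DMSO replicate 2 (adjusted p = 0.0793). Of 31 other p53 targets, 13 were higher and 0 lower, among them Apaf1 (0.62), Aen (0.80), Fas (0.27) and Rps27l (0.22). The median over the list was 0.18, and over all genes 0.00. Gdf15 was too low to be tested in this class. In BPTES 1, BPTES 2, DMSO 1 and DMSO 2 it had 8, 3, 1 and 26 UMIs in positive and 3, 1, 0 and 4 in negative cells.

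Other classes with calls had Btg2 alone among the members tested. It was higher in positive cells by 0.76 in venous endothelial-like cells, 0.37 in lymphatic endothelial-like cells, 0.39 in T-like cells and 0.29 in non-classical monocyte-like cells. The shares of all genes called higher there were 3.59%, 1.69%, 2.51% and 0.965%. The calls in T-like, lymphatic and non-classical monocyte-like cells were each lost when a single library was left out: BPTES replicate 1 or DMSO replicate 1 for T-like, BPTES replicate 2 for lymphatic and DMSO replicate 2 for non-classical monocyte-like cells, with adjusted p of up to 0.0952. The T-like call was also lost with no filter on low counts (adjusted p = 0.101 by edgeR). In classical monocyte-like and neutrophil-like cells, the classes next to aerocyte-like cells for Cdkn1a, none of 5 members tested in each was called by edgeR. There 0.0588% and 0.0395% of all genes were called higher. Without adjustment, 0 and 1 of the 5 had p under 0.05, and DESeq2 called 0 in both. The difference between classes in these fold changes was not tested. Of the other p53 targets, 3 of 23 were called higher in venous endothelial-like, 1 of 20 in lymphatic endothelial-like and 2 of 24 in T-like cells. Gdf15 was too low to be tested in venous endothelial-like cells. In BPTES 1, BPTES 2, DMSO 1 and DMSO 2 it had 1, 12, 2 and 13 UMIs in positive and 0, 1, 0 and 3 in negative cells. In non-classical monocyte-like cells Gdf15 was tested and not called (log2 fold change -0.18, SE 0.37), with positive cells higher in 2 of 4 libraries.

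**Figure D3:**
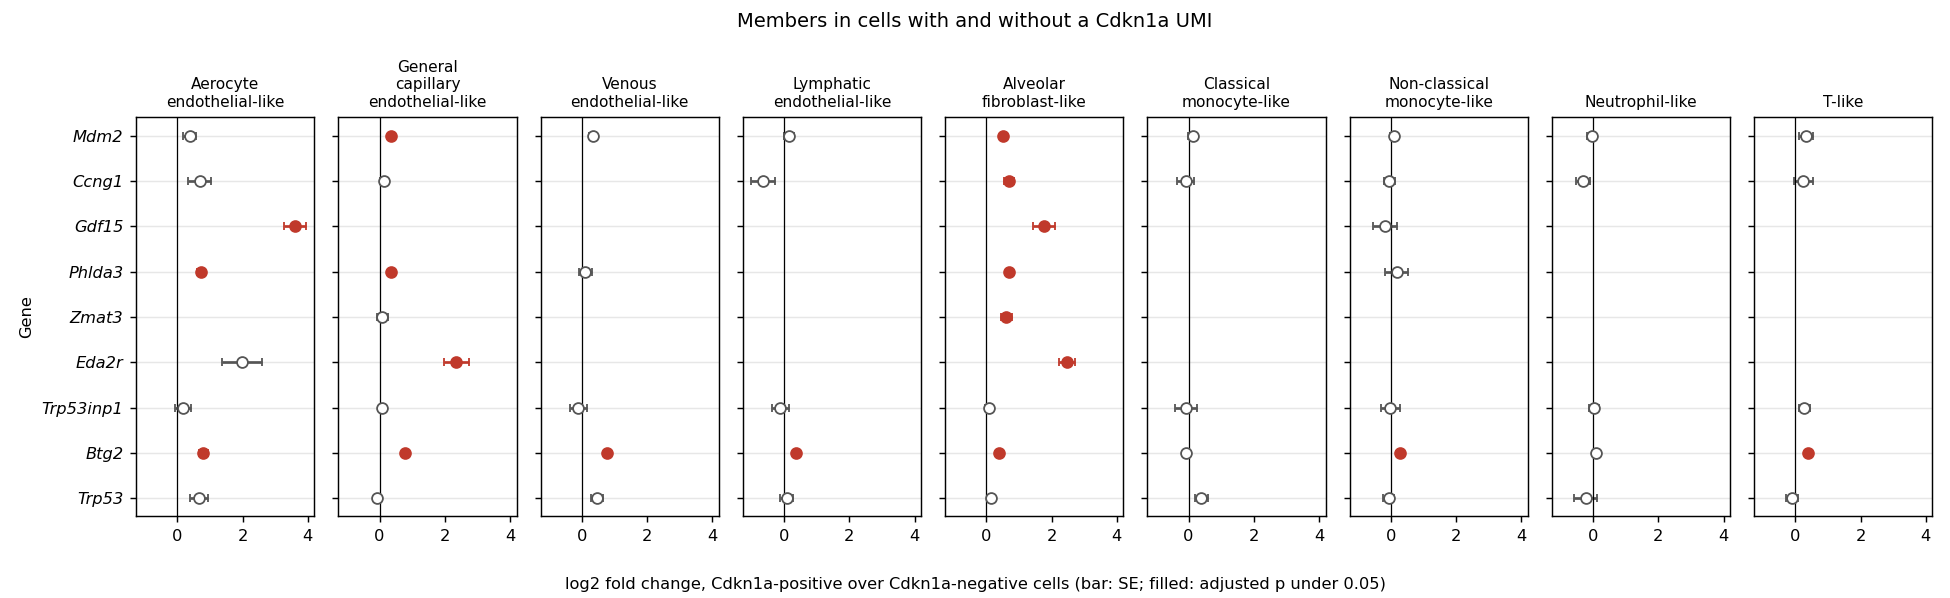
Log2 fold change (x axis; bar: SE) of 9 members (rows) in Cdkn1a-positive over Cdkn1a-negative cells of 9 classes (panels), with filled red points for adjusted p under 0.05; a gene not tested in a class has no point. Calls beyond Btg2 lie in aerocyte, general capillary and alveolar fibroblast-like cells, where those of Gdf15 and Eda2r passed the filter only through positive cells.

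Aerocyte-like cells had 41 to 91 negative cells per library and belonged to 9 further classes with at least 20 cells of each kind, tested after the other results were known. In these 9 classes, 6 of 42 pairs were higher and 0 lower, against 2.03% and 1.37% of all pairs of gene and class. Of the 42, the negative cells reached the filter's count in every library in 29, and 5 of these 29 were called. In aerocyte-like cells, 3 of 8 members tested were called higher, Gdf15 among them as a description, with 0.748% of all genes. Gdf15 stood at 139, 195, 49.6 and 149 CPM in positive cells and at 5.02, 0, 5.30 and 23.0 CPM in negative cells. The highest negative value lay below the lowest positive one. The negative cells held 1, 0, 1 and 6 Gdf15 UMIs against 128, 184, 37 and 130 in the positive cells, so the gene passed the filter through the positive cells and its values are a description without a test. Phlda3 was higher by 0.71 on the log2 scale (436 ± 19 against 265 ± 44 CPM) and Btg2 by 0.80 (385 ± 76 against 221 ± 68 CPM). These calls of Phlda3 and Btg2 held when any 1 library was left out.

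Eda2r in aerocyte-like cells was at 32.5, 24.4, 17.4 and 32.1 CPM in positive and 0, 34.2, 5.30 and 0 CPM in negative cells, and was not called (log2 fold change 1.98, SE 0.61, adjusted p = 0.102 by edgeR). The BPTES 2 library went the other way. The negative cells held 0, 4, 1 and 0 Eda2r UMIs against 30, 23, 13 and 28 in the positive cells. Eda2r reached the filter's count in 3 of the positive and 1 of the negative sums, so it passed mainly through positive cells. Of 20 other p53 targets, 3 were higher and 0 lower, with Rps27l at a log2 fold change of 0.74. The 3 further calls were all of Btg2, at 1.66 in pericyte-like, 0.47 in adventitial fibroblast-like and 0.41 in peribronchial fibroblast-like cells. All genes were called higher there at 9.04%, 0.458% and 0.859%. The adventitial call was lost without BPTES replicate 1, DMSO replicate 1 or DMSO replicate 2, and the peribronchial call without either DMSO replicate. Of the other p53 targets, 3 of 10 were also called higher in conventional dendritic-like cells, with 7.41% of all genes, and 1 of 10 in pericyte-like cells. Gdf15 was not called in interstitial macrophage-like (log2 fold change -0.41, SE 0.34), pericyte-like (0.67, SE 0.38) or peribronchial fibroblast-like cells (0.61, SE 0.44). Positive cells were higher for it in 1, 3 and 2 of 4 libraries in these classes.

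Immediate early genes, which switch on within minutes of a stimulus and also during tissue digestion, were higher in Cdkn1a-positive cells of some classes and not of others. Of the list, 28 of 29 tested were higher in positive general capillary-like cells (median log2 fold change 0.64), 21 of 29 in venous endothelial-like (0.55), 22 of 30 in alveolar fibroblast-like (0.31), 18 of 28 in lymphatic endothelial-like (0.42), 14 of 26 in aerocyte-like (0.47) and 25 of 28 in pericyte-like cells (1.30). None was lower in these 6 classes. In classical monocyte-like cells 0 of 26 were higher and 4 lower, with 0.103% of all genes called lower. In neutrophil-like cells 0 of 25 were higher and 1 lower (0.178% of all genes lower). Higher and lower calls stood side by side in T-like (7 and 1 of 26, with 1.98% of all genes lower), non-classical monocyte-like (4 and 3 of 25, with 0.565% lower) and conventional dendritic-like cells (7 and 4 of 26, with 7.41% of all genes higher and 6.12% lower). In adventitial and peribronchial fibroblast-like cells 6 of 30 and 6 of 28 were higher and 0 lower, and in B-like, AT2-like, interstitial macrophage-like and ciliated airway-like cells edgeR called 0 in either direction. Fosl2, Nfkbia, Junb and Btg2 were each called higher in 6 of the 8 classes. Gadd45g was called in 5, as were Nr4a2 and Bhlhe40, which is on the TGF-beta list, and it is placed ahead of them by its median log2 fold change (0.63 against 0.53 and 0.54). Btg2 is thus on the p53 list and among these genes, and the part of digestion in its values was not tested. The immediate early list used here did not hold Btg2, Nfkbia or the other members called in alveolar fibroblast-like, general capillary-like and aerocyte-like cells. Among glucocorticoid targets 5 of 13 were higher in general capillary-like cells, and among TGF-beta targets 4 were higher and 4 lower of 12, with 5.88% of all genes called lower there. In alveolar fibroblast-like cells 3 of 13 TGF-beta targets were higher and 1 lower, with 1.37% of all genes lower. Pericyte-like cells had 6 of 10 glucocorticoid and 7 of 12 TGF-beta targets higher and 1 TGF-beta target lower. Of all 5035 genes there, 455 were higher and 282 lower. Glucocorticoid targets were higher at 4 of 12 in venous, 4 of 14 in lymphatic and 4 of 14 in alveolar fibroblast-like cells, and TGF-beta targets at 3 of 7 in T-like cells. Of genes of the p53 regulators list, 1 of 13 was lower (Mdm4) and 0 higher in general capillary-like cells, with 5.88% of all genes lower. In alveolar fibroblast-like cells 0 of 13 were called in either direction.

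In aerocyte-like cells, Gdf15 and Eda2r were detected most often in the cells with 3 or more Cdkn1a UMIs. Among thinned cells with 0, 1, 2 and 3 or more Cdkn1a UMIs, the share with a Gdf15 UMI was 1.57 ± 1.3%, 3.59 ± 1.9%, 4.42 ± 4.2% and 25.7 ± 8.6% (mean ± SD over 4 libraries). For Eda2r it was 1.60 ± 2.3%, 1.17 ± 1.7%, 1.59 ± 1.4% and 10.4 ± 3.8%. Every library had more Gdf15-positive and more Eda2r-positive cells at 3 or more UMIs than that same gene reached in any library at 0 to 2. Phlda3 went more evenly from 48.1 ± 9.6% at 0 to 71.4 ± 3.1% at 3 or more UMIs, and Btg2 from 41.6 ± 7.1% to 62.4 ± 8.7%. In alveolar fibroblast-like cells Eda2r was found in 0.997 ± 0.16%, 2.87 ± 0.68%, 6.86 ± 1.9% and 10.6 ± 6.1% of cells. As a background, at the same depth 0.0239% of T-like cells had a Gdf15 UMI and 0.0371% an Eda2r UMI. Without thinning the shares in all aerocyte-like cells were 22.6% for Gdf15 and 14.4% for Eda2r, and in T-like cells 0.134% and 0.179%.

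**Figure D4:**
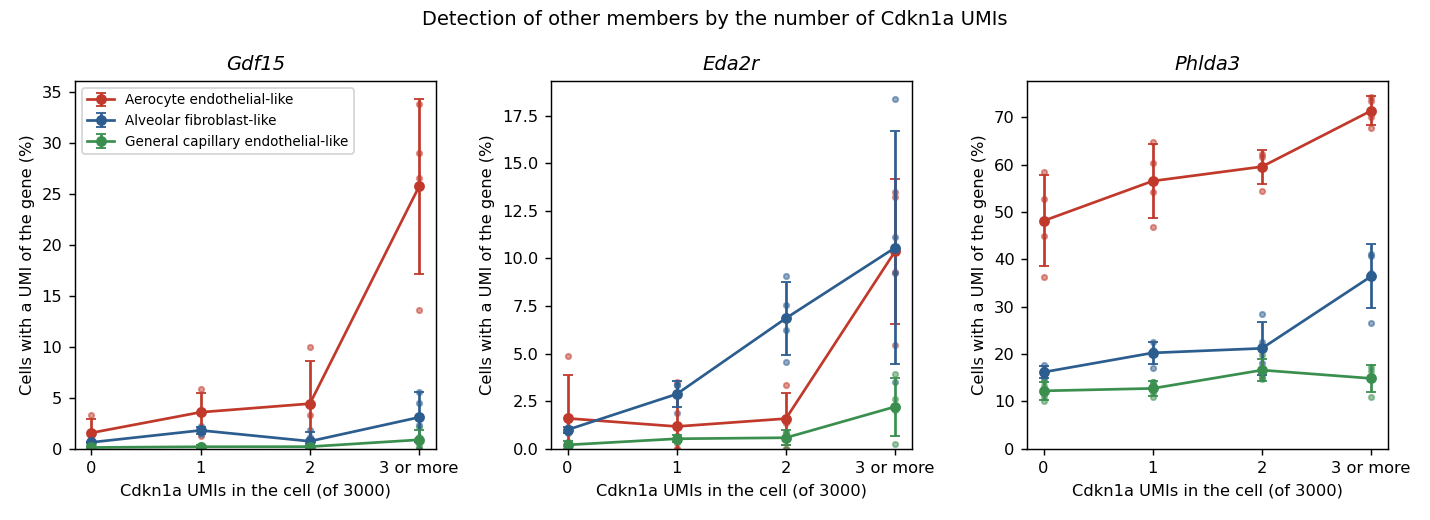
Share of thinned cells with a UMI of Gdf15, Eda2r or Phlda3 (y axis, %) by the number of Cdkn1a UMIs in the cell (x axis), for 3 classes, as mean and SD over 4 libraries (large points and bars) with each library (small points). In aerocyte-like cells Gdf15 goes from 4.42% at 2 UMIs to 25.7% at 3 or more.

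Aerocyte-like cells with these targets differed from the others in aerocyte markers by less than the spread between libraries. Cells with a Gdf15 or Eda2r UMI were 15.3%, 20.3%, 8.39% and 16.6% of aerocyte-like cells in BPTES 1, BPTES 2, DMSO 1 and DMSO 2. They numbered 59, 75, 27 and 65, with a mean of 6.66, 5.93, 5.52 and 6.09 Cdkn1a UMIs per thinned cell. The aerocyte-like cells with neither gene had 2.30, 2.73, 2.24 and 2.06. Their summed aerocyte markers were 14196 ± 363 CPM, against 14248 ± 257 in the aerocyte-like cells with neither gene. General capillary markers summed to 430 ± 57 against 495 ± 57 CPM, and AT2 markers to 275 ± 119 against 293 ± 108 CPM. Of the 31 marker lists of other cell types, 30 overlapped between libraries. Peribronchial fibroblast markers alone did not, at 11.8 ± 1.3 against 8.83 ± 1.7 CPM. Conventional dendritic markers, at 290 ± 40 against 230 ± 17 CPM, were higher with overlap. The other p53 targets, which the choice of these cells did not use, summed to 2421 ± 204 against 1687 ± 68 CPM, without overlap between libraries. Immediate early genes summed to 12867 ± 581 against 11578 ± 360 CPM, also without overlap, and their part in the difference was not tested. These cells were singled out after their values were seen, so the values are a description without a test.

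Detection of pairs of members in the same thinned cell is given as odds ratios stratified by library, as a description. For Cdkn1a and Eda2r the ratio was 5.32 in aerocyte-like, 4.81 in alveolar fibroblast-like and 4.50 in general capillary-like cells, resting on 73, 73 and 64 cells with both. For Cdkn1a and Gdf15 it was 9.48 in aerocyte-like cells (185 cells with both), 2.91 in alveolar fibroblast-like cells and 1.05 in non-classical monocyte-like cells. For Gdf15 and Eda2r it was 8.72 in aerocyte-like cells. For Cdkn1a and Trp53 it was 0.915 in general capillary-like, 1.10 in alveolar fibroblast-like and 1.72 in aerocyte-like cells.

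Few differences between BPTES and DMSO passed the test among the members. Summed counts of the 12 largest classes were compared between 2 BPTES and 2 DMSO libraries with edgeR's quasi-likelihood test, adjusted over all genes of each class. Of 109 pairs of member and class, 0 were called higher and 1 lower, against 0.234% of all pairs of gene and class in either direction. Without adjustment 26 of the 109 had p under 0.05, against 13.3% of all pairs of gene and class. DESeq2 called 6, all of Btg2, against 1.75% of all pairs with an adjusted p. The count was also larger with no filter on low counts and with the replicate number as a block. It was smaller with doublets kept and at Leiden resolution 2, as given in the section on processing. Leaving out any 1 library also gave a larger count, from fits with 1 library in a group. A summed count does not separate the share of cells with a transcript from the amount per cell.

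The call was Btg2 in neutrophil-like cells, where 2.04% of genes were called. It had 1798 and 1483 CPM in the BPTES libraries and 2205 and 2297 CPM in the DMSO libraries. The groups did not overlap, and the log2 fold change was -0.46 (SE 0.09, adjusted p = 0.0488 by edgeR). The call held when any 1 library was left out. It was lost with doublets kept (log2 fold change -0.35) and at Leiden resolution 2 (-0.29). Btg2 had a negative log2 fold change in 10 of 12 classes, from -0.66 in venous endothelial-like cells to 0.26 in classical monocyte-like cells. In 8 of 12 classes both BPTES libraries were lower than both DMSO libraries, and over all pairs of gene and class 23% were. The classes share the same 4 libraries, so counts over classes, here and below, are not counts of separate observations. In venous endothelial-like cells the values were 825 and 713 against 1354 and 1075 CPM, with an adjusted p of 0.187 by edgeR. In classical monocyte-like cells they were 737 and 710 against 553 and 657 CPM (adjusted p = 0.261 by edgeR).

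A few immediate early genes were called with BPTES by edgeR. In neutrophil-like cells 3 of 29 fell, Egr1 (log2 fold change -1.15), Socs3 (-0.58) and Ier3 (-0.47), and Socs3 was lost without DMSO replicate 2 and Ier3 without DMSO replicate 1. In aerocyte-like cells, where 0.242% of all genes were called, 2 of 28 fell, Junb (-0.49) and Zfp36 (-0.48). Both were lost without either DMSO replicate, with adjusted p of up to 0.722 and 0.457. In lymphatic endothelial-like cells (0.511% of all genes) 1 of 30 fell, Ier3 (-0.60), and it was lost without BPTES replicate 1, DMSO replicate 1 or DMSO replicate 2. In AT2-like cells (0.215%) 1 of 29 fell, Socs3 (-0.97), and in classical monocyte-like cells (0.155%) 1 of 30 rose, Klf6 (0.58), and these calls and that of Egr1 held when any 1 library was left out. The list's median log2 fold change ran over the 12 classes from -0.24 in aerocyte-like and -0.22 in AT2-like cells to 0.14 in non-classical and 0.27 in classical monocyte-like cells. It was -0.15 in neutrophil-like and -0.17 in venous endothelial-like cells, and -0.02, 0.06 and 0.02 in general capillary-like, B-like and T-like cells. Their part in the Btg2 values was not tested. Of the pairs of another p53 target and a class, edgeR called 0 in either direction. An unadjusted p under 0.05 was found in 73 of them (18.6%), and DESeq2 called 8 (2.32%), beside the 13.3% and 1.75% of all pairs.

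Cdkn1a was called with BPTES in 0 of the 12 classes by edgeR and by DESeq2, and 3 classes had an unadjusted p under 0.05. The lowest adjusted p by edgeR was 0.0720, in AT2-like cells, with 47.0 and 44.9 CPM in the BPTES libraries against 69.3 and 61.4 in the DMSO libraries (log2 fold change -0.50, SE 0.09). In lymphatic endothelial-like cells it had 206 and 225 against 307 and 274 CPM (-0.43, SE 0.10). Aerocyte-like cells went the other way, with 1020 and 1096 against 826 and 911 CPM (0.28, SE 0.07, adjusted p = 0.170 by edgeR). None of these 3 classes had overlapping groups. Over the 12 classes, both BPTES libraries were higher for Cdkn1a in 2 and lower in 4. Over all pairs of gene and class, 22.6% and 23% were so. The share of thinned aerocyte-like cells with a Cdkn1a UMI was 82.1% and 88.9% against 79.5% and 76.7%. In general capillary-like cells the difference was 0.08 (SE 0.08) and in classical monocyte-like cells 0.02 (SE 0.09).

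In aerocyte-like cells, where Cdkn1a is highest, Eda2r had 28.4 and 27.3 CPM with BPTES and 13.6 and 19.2 CPM with DMSO, a log2 fold change of 0.75 (SE 0.17, adjusted p = 0.110 by edgeR). Ccng1 had 38.2 and 36.3 against 28.7 and 27.2 CPM (0.42, SE 0.11) and Zmat3 26.4 and 20.6 against 13.9 and 19.9 CPM (0.47, SE 0.19). Gdf15, with 103 and 155 against 47.0 and 117 CPM, overlapped. Btg2 went the other way, with 317 and 291 against 456 and 373 CPM (-0.44, SE 0.09, adjusted p = 0.0924 by edgeR). Mdm2, Phlda3, Trp53inp1 and Trp53 had log2 fold changes between -0.06 and 0.04. None of these passed the threshold. Zmat3 had a positive log2 fold change in 11 of 11 classes tested, from 0.09 to 0.54. It was called in 0 by edgeR and by DESeq2, with an unadjusted p under 0.05 in 2. In 5 of the 11 both BPTES libraries were higher, and over all pairs of gene and class 22.6% were. For Trp53 RNA both BPTES libraries were higher in 6 of 12 classes, again with 0 calls by either tool and 2 unadjusted p under 0.05.

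**Figure D5:**
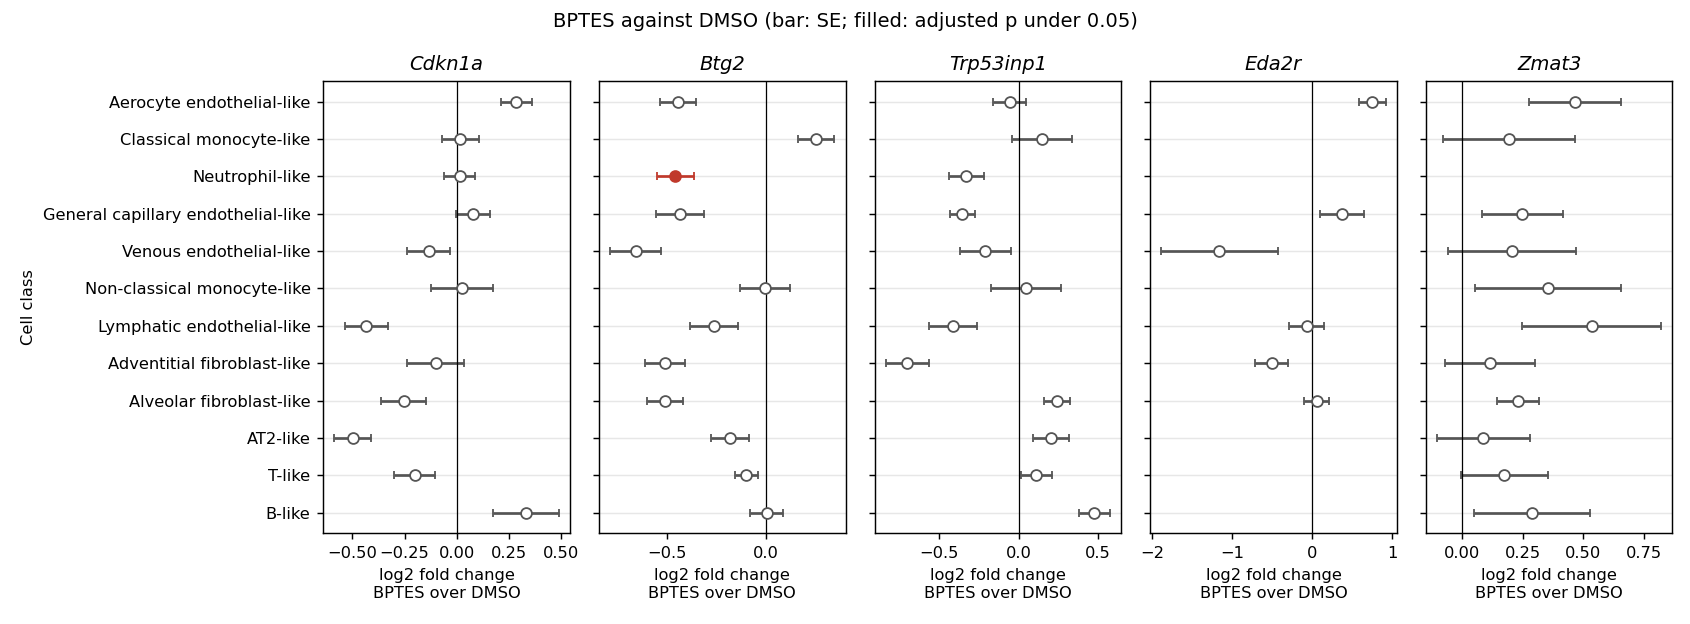
Log2 fold change of BPTES over DMSO (x axis; bar: SE; filled red: adjusted p under 0.05) of 5 members (panels) in 12 classes (rows, ordered by Cdkn1a); a gene not tested in a class has no point. Btg2 is negative in 10 of 12 classes and called in neutrophil-like cells, while Cdkn1a is positive in 6 classes and negative in 6.

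Whether the BPTES effect differed between the 12 classes was tested with edgeR in 1 model over all classes and libraries, with library and class terms and an F test of the class by treatment terms. Of the 10 members 2 were called, against 5.84% of all genes: Btg2 (adjusted p = 0.00814) and Trp53inp1 (adjusted p = 0.00959). Trp53inp1 had a negative log2 fold change of -0.70 in adventitial fibroblast-like cells (16.4 and 18.1 against 28.0 and 28.4 CPM) and a positive one of 0.48 in B-like cells (68.6 and 80.4 against 56.4 and 50.6 CPM). Cdkn1a had an adjusted p of 0.0665, and of 0.0454 with DESeq2's size factors. Both calls were lost without BPTES replicate 1, BPTES replicate 2 or DMSO replicate 1, with adjusted p of up to 0.338 for Btg2 and 0.232 for Trp53inp1.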

How the data were processed

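The deposited files are filtered matrices of raw UMI counts, and the submitters' processing notes name Cell Ranger 8.0.1 and mm10. Droplet libraries were made with a 3' kit per the labels' protocols. Barcodes under 500 genes or 1000 UMIs, or above 10% mitochondrial UMIs, were dropped. The barcodes with the highest doublet scores (0.4% per 1000) were removed, 4780 in all. Counts were scaled to 10000 per cell, log-transformed, reduced to 40 components from 2000 variable genes (members and listed genes left out) and clustered with the Leiden algorithm (igraph 0.11.9, 15 neighbours, resolution 1, seed 0). Clusters were named from 32 marker lists, and names end in "-like".

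Class sums per library went into edgeR's quasi-likelihood test (version 4.0.16, R 4.3.3) after TMM scaling and filterByExpr, and DESeq2 1.42.0 served as an alternative. CPM beside a fold change are TMM-scaled. The scripts used Python 3.11.15, numpy 2.4.6, scipy 1.17.1 and pandas 2.3.3, and the fits were tested on simulated data. A standard error is the absolute log2 fold change divided by the square root of F. All 10 members were measured in every class and tested where they passed the filter. The 5 genes most like Cdkn1a across classes are named. For positive against negative cells, the text names the 5 genes called higher in the most classes (ties by median log2 fold change) and up to 4 called genes per list, and for BPTES the called list genes. The members and lists were chosen with earlier results of these data known.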

Additional observations from a re-analysis of the deposited data

Results flagged for a closer look

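Btg2 and Trp53inp1 were marked because their BPTES effect differed between classes by a test of the difference itself (edgeR F test of class by treatment terms, adjusted p = 0.00814 and 0.00959). For Btg2 the log2 fold change ran from -0.66 to 0.26 over 12 classes, and for Trp53inp1 from -0.70 to 0.48. The adjusted p over fits without 1 library ran from 0.00509 to 0.338 for Btg2 and from 0.0320 to 0.232 for Trp53inp1. Groups of 2 libraries allow no test for a library far from the others.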

How the results depend on the processing

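The count of pairs of member and class called with BPTES (1) became 6 with DESeq2, 15 with no filter on low counts, 0 with doublets kept, 0 at Leiden resolution 2, and 2 to 10 with 1 library left out. Replicate numbers are shared between the groups, but same-numbered libraries did not deviate together (correlations of -0.195 to 0.0716 over 12 classes). With the replicate number as a block the count was 9, and with crossed numbers, added after seeing the data, 4. The 15 pairs called higher in Cdkn1a-positive cells include the 3 that passed the filter only through those cells. Such pairs were not set apart in the counts under other settings. The 15 became 9 with DESeq2, 9 in the BPTES libraries alone, 9 in the DMSO libraries alone and 7 with no library block. With 1 library left out they became 12 to 14. Splits with equal numbers of cells per cluster gave 12. Trp53 in general capillary-like cells went from -0.07 to 0.17, now called, at 5000 UMIs. The split by at least 2 UMIs could not be fitted in T-like cells. The 2 members whose BPTES effect differed between classes became 4 with no filter, and 0 to 4 with 1 library left out. The median rho of the 9 other members with Cdkn1a (0.12) was 0.20 in the BPTES libraries alone, -0.12 over CD45-positive classes, 0.27 at Leiden resolution 0.5, 0.30 as Pearson's r, and 0.11 to 0.18 with 1 library left out. The aerocyte level over the median class (3.63) was 2.10 as a share of cells with a UMI, and 3.39 to 3.83 with 1 library left out. Low levels of Eda2r, Gdf15 and Zmat3 limit what could be tested in immune classes.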

Other observations

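Among classes too small for full description, arterial endothelial-like cells had 142 ± 58 CPM of Phlda3, resting on 72 UMIs, and alveolar type 1-like cells 61.3 ± 18 CPM of Cdkn1a. Of the 8 unnamed clusters with at least 50 cells in every library, that with the highest Cdkn1a had 544 ± 28 CPM over 637 cells, with 5.26 ± 3.4 CPM of Gdf15 and 0.0568 ± 0.11 CPM of Eda2r.

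Lists read beside the members in Cdkn1a-positive cells also held calls. Of 10 cell cycle genes tested in T-like cells, 3 were higher and 0 lower by edgeR, with 2.51% of all genes called higher there. Mki67 (log2 fold change 1.84) and Top2a (1.79) were among the 3. Whether genes of these lists reached the filter's count in negative cells was not checked. In general capillary-like cells, where 10.1% of all genes were called higher, 1 of 5 CDK inhibitors (Cdkn2d) and 3 of 13 ATF4 stress genes were higher, with Atf4 itself called in 3 of 8 classes. In pericyte-like and in conventional dendritic-like cells, 1 of 2 CDK inhibitors tested was lower and 0 higher. Of all genes, 282 of 5035 and 303 of 4952 were called lower there.

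With BPTES, edgeR also called genes of the other lists. In classical monocyte-like cells the glucocorticoid target Lcn2 was lower (log2 fold change -2.09), and Tsc22d3 (0.72) and the ATF4 stress gene Cebpg (0.84) were higher. In neutrophil-like cells Lcn2 (-1.05) and the TGF-beta target Tgfbi (-0.55) were lower. These 5 calls held when any 1 library was left out. In aerocyte-like cells the glucocorticoid targets Tsc22d3 (0.73) and Zbtb16 (0.57) were higher and Sgk1 (-0.46) lower, and all 3 calls were lost without either DMSO replicate, with adjusted p by edgeR of up to 0.772. The call of the TGF-beta target Bhlhe40 in AT2-like cells (-0.60) was lost without DMSO replicate 1 (adjusted p = 0.0634 by edgeR).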
